A study of Mus musculus with 4 samples.

Results

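The transcripts described here are those of 10 cytokine genes that T cells can make or respond to: Ltb, Lta, Tnf, Ifng, Il2, Il17a, Il10, Tgfb1, Il16 and Il6. They were measured in CD4 cells of sanroque mice (san/san, 2 arrays) and of wild type mice (+/+, 2 arrays) as total RNA on Affymetrix MOE430A arrays. Every probe set annotated to one of these genes alone was taken, which gave 11 probe sets, 2 of them for Il16 and 1 for each other gene, of 22690 probe sets on the array. Sanroque is a recessive line from mutagenesis of C57BL/6 males with ENU, a chemical that makes single base changes. Its mutation lies in Rc3h1, the gene of the RNA-binding protein Roquin-1, and the san/san animals are homozygous for it. No agent is named for either genotype apart from that mutagen, and the labels give neither the age nor the number of mice behind an array, so the p-values given here reflect array-to-array spread that may be no more than technical. The file headers describe the RNA of both number 1 arrays as coming from sorted T cells, and that of +/+ array 2 has the unexplained letters CBA. A difference of strain between the genotypes therefore cannot be told apart from the mutation. No probe set is annotated to Rc3h1 alone, so the mutated gene gave no check of the labels.

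Cytokines are secreted or surface proteins through which immune cells instruct each other. CD4 T cells are commonly sorted by the cytokine they release after activation: interferon gamma marks type 1 helper cells, interleukin 17A marks Th17 cells, and interleukin 10 and TGF-beta are known for restraining responses. Many of these mRNAs are scarce in resting cells, are induced through the T cell receptor, and are degraded quickly through elements in their 3' ends, to which proteins such as Roquin-1 and tristetraprolin bind. Tnf mRNA is a known target of both proteins.

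All values are signals as deposited, on a linear scale. The brightness of a probe set depends on its probes, so levels are compared between arrays and not between genes. For the test, a probe set needed a mean signal of at least 21.3 over the 4 arrays, and 7 of the 11 cytokine probe sets, for 6 genes, reached it: those of Ltb, Lta, Tnf, Ifng, Tgfb1 and both of Il16. The 4 probe sets of Il2, Il17a, Il10 and Il6 did not, and are given by value. Differences are san/san minus +/+ of log2(signal + 6), where the added 6 understates the change of dim probe sets. They were tested with limma, which fits all 13585 bright enough probe sets together, and a probe set was called at a Benjamini-Hochberg adjusted p of 0.05 or less.

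None of the 7 tested cytokine probe sets was called, while 144 of all 13585 were, which is 1.06%. At an unadjusted limma p under 0.05 there were 2 of the 7, Tnf and Ifng, against 9.89% of all tested probe sets. Tnf was higher and Ifng lower on both san/san arrays than on both +/+ arrays, and Ifng reached the minimum for testing only through its +/+ values. Leaving out +/+ array 1 raised the count over all probe sets to 360 and none of the cytokines was among them. Arrays with the same number in their titles were hybridised and scanned on the same day. The day also stands for whatever else differs between the number 1 and number 2 arrays, such as the record of a wash protocol. With 4 arrays, a block leaves less from which to estimate the spread of each probe set. With that day as a block limma called 1 of the 7, Tnf, among 6.27% of all tested probe sets. The median difference of the 7 was 0.073 and that of all tested probe sets 0.0147, and the median size of the difference, regardless of sign, was 0.248 against 0.198. In 4 of the 7 the genotypes did not overlap, 2 higher and 2 lower in san/san. Of all tested probe sets the genotypes did not overlap in 38.7%, with 20.9% higher and 17.7% lower in san/san.

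**Figure D1:**
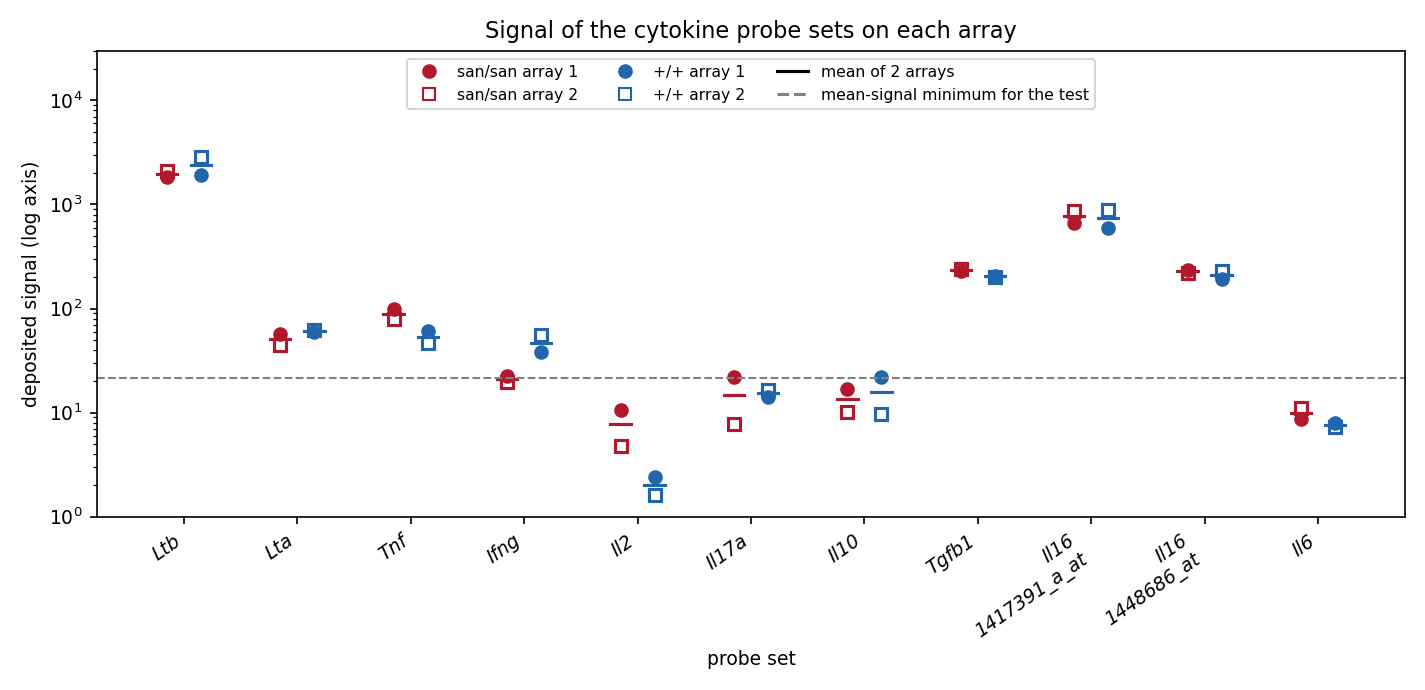
Deposited signal (log axis) of each of the 11 cytokine probe sets on the 2 san/san arrays (red, left) and the 2 +/+ arrays (blue, right), with filled circles for number 1 arrays, open squares for number 2 arrays and short lines for genotype means. Tnf lies higher and Ifng lower on both san/san arrays, and Il2, Il17a, Il10 and Il6 have means under the dashed line at 21.3.

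Ltb, Tnf and Lta are neighbours. In the GRCm38.p6 annotation of RefSeq they lie on chromosome 17 in this order, Ltb at chr17:35194507-35196305, Tnf at chr17:35199367-35202007 and Lta at chr17:35203165-35205578, with 3061 bases between Ltb and Tnf and 1157 between Tnf and Lta. Ifng lies at chr10:118441046-118445894. The 250 bases before the start in RefSeq's promoter table are shown for Tnf and Ifng, the members with the smallest p, and for Ltb and Lta, the neighbours of Tnf, whose differences had the opposite sign to that of Tnf. For Lta that table has a start, at base 35205351, that lies inside the interval given above, and 227 of the 250 bases shown fall inside that interval. The windows of the other 3 lie outside the intervals of their genes. Capitals mark matches to TATAAA on the gene's strand, and on either strand to GGGANNNNCC (an NF-kB pattern), GGAAA (the core of NFAT sites) or TGANTCA (an AP-1 pattern). The windows, from RefSeq and GRCm38.p6, read 5' to 3' on the gene's strand, which is minus for Tnf (chr17:35202008-35202257) and Lta (chr17:35205352-35205601) and plus for Ifng (chr10:118440796-118441045) and Ltb (chr17:35194257-35194506).
Tnf: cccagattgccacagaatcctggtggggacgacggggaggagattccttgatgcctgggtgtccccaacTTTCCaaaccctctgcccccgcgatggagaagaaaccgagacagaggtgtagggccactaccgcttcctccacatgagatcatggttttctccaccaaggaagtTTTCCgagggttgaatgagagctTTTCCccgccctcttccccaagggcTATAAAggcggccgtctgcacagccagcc
Lta: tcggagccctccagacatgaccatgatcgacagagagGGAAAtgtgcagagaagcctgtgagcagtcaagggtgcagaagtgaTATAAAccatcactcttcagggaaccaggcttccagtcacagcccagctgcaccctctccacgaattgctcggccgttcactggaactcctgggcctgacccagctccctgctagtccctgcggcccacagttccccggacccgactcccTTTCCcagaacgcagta
Ltb: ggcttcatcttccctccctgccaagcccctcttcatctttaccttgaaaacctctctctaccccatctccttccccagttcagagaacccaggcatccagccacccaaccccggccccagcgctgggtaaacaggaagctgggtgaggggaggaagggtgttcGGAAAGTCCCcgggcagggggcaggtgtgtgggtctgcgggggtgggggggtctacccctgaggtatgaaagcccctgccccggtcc
Ifng: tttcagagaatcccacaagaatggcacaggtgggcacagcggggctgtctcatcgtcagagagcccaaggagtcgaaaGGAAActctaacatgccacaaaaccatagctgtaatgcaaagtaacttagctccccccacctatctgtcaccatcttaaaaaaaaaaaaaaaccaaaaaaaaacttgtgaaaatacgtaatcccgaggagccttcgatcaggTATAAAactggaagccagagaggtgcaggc
The windows of Tnf and Ifng both hold TATAAA, whose first base lies 29 bases before the start in Tnf and 30 in Ifng. The Lta window has it 167 bases before the start used in the promoter table, inside the Lta interval, and the Ltb window does not contain these letters. TATAAA is present in 7.59% of all 32851 promoter windows. The NFAT core GGAAA occurs 3 times in the Tnf window, 2 times in that of Lta, and 1 time each in those of Ltb and Ifng, and 55.6% of all windows have at least 1. GGGANNNNCC was found in the Ltb window alone among these 4, on the opposite strand, overlapping its GGAAA, and is present in 17.6% of all windows. TGANTCA is in none of the 4, against 6.75% of all. These matches describe letters and not binding.

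Tnf encodes tumour necrosis factor, a proinflammatory cytokine made by activated T cells and by macrophages. Its signal was 99.0 and 79.8 on the san/san arrays, against 60.7 and 46.8 on the +/+ arrays. Both san/san arrays lay above both +/+ arrays. The mean was 89.4 ± 13.6 in san/san and 53.8 ± 9.83 in +/+ (SD, n = 2 each). The difference of 0.68 on the log2 scale, with a standard error of 0.240, corresponds to 1.60-fold, and 6.66% of all tested probe sets had one at least as far from 0. It did not pass (limma adjusted p = 0.347). It was 0.65 between the number 1 arrays and 0.70 between the number 2 arrays, and with the day as a block it passed (limma adjusted p = 0.0378). That was the single alternative of 13 under which it did, and the adjusted p over the others ran from 0.149 to 0.909.

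Tnf is also made by macrophages, and marker genes of other cells gave signal in both genotypes. In bulk RNA, fewer cells of a type and less RNA per cell cannot be told apart. The summed signal of 10 macrophage and dendritic cell markers was 2325.2 and 2279.8 in san/san and 1490.1 and 1707.9 in +/+. Of the 9 tested 1, the lysozyme gene Lyz2, rose. With the day as a block Csf1r and Mpeg1 rose too (limma adjusted p = 0.0389 and 0.00266). Fcgr3 and the dim Itgam were also higher on both san/san arrays, while Cd14, Cd68, Adgre1 and Itgax overlapped. Cst3 was lower on both, at 358.8 and 414.4 against 440.1 and 573.6 in +/+. The 9 neutrophil markers on the array summed to 1322.7 and 1376.7 in san/san and 537.3 and 516.9 in +/+. Of the 6 tested 3, Ngp, S100a8 and S100a9, rose. With the block Camp and Ltf rose too (limma adjusted p = 0.00019 and 0.00122). Camp reached the minimum for testing only through its san/san values. None of these markers was at 0, but without detection calls a signal above 0 does not show that a transcript was present. Elane, a neutrophil elastase gene, read 3.0 and 1.3 in san/san and 3.4 and 1.5 in +/+. The part of such cells in the Tnf values was not tested. The 9 T cell markers summed to 9515.7 and 10736.4 in san/san and 10196.2 and 11177.1 in +/+. Of these 9, 0 were called, also with the day as a block.

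Lta encodes lymphotoxin alpha, which is secreted alone or joins lymphotoxin beta on the cell surface. It read 56.4 and 44.8 in san/san, against 59.9 and 62.1 in +/+. The san/san arrays were both lower, though array 1 lay just under the +/+ arrays. The log2 difference was -0.25 with a standard error of 0.250 (limma adjusted p = 0.852), made up of -0.08 between the number 1 arrays and -0.42 between the number 2 arrays.

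Ltb encodes lymphotoxin beta, the membrane partner of lymphotoxin alpha, known for its role in lymphoid tissue architecture and made by resting T and B cells. The san/san arrays gave 1853.7 and 2098.6, against 1907.3 and 2877.8 on the +/+ arrays. The genotypes overlapped, and +/+ array 2 stood above the other 3. The log2 difference was -0.25 with a standard error of 0.220 (limma adjusted p = 0.817), and without +/+ array 2 it was 0.0482. The 9 B cell markers on the array summed to 1277.4 and 1330.6 in san/san and 1340.3 and 1382.1 in +/+. This sum was highest on +/+ array 2, as was that of the T cell markers given above, and 0 of the 8 B cell markers tested were called. The part of B cells in the Ltb values was not tested. With the day as a block Cr2 was called lower in san/san (limma adjusted p = 0.0125). Cd79a, Cd79b and Fcer2a were also lower on both san/san arrays, while Cd22 was higher on both. Ms4a1, Blk, Vpreb3 and the dim Pax5 overlapped.

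Lta and Ltb thus differed with the opposite sign to Tnf, except Ltb without +/+ array 2, and none of these neighbours passed. The log2 ratio of Tnf to Lta within an array, chosen after the values were seen, was 0.75 and 0.76 in san/san, against 0.02 and -0.37 in +/+. The ratio was higher by 0.93 in san/san. Its lack of overlap follows from Tnf being higher and Lta lower without overlap, so it adds nothing to those values. With 2 arrays a genotype the smallest p an exact two-sided permutation test allows is 0.333. That is the p obtained, and it was fixed in the same way.

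Ifng encodes interferon gamma, the macrophage-activating cytokine of type 1 helper, CD8 T and NK cells. Its probe set read 22.5 and 19.9 in san/san, against 37.9 and 56.2 in +/+. Both san/san arrays lay below both +/+ arrays, and their mean was just under the 21.3 needed for testing. Ifng thus reached that minimum only through its +/+ values. The mean was 21.2 ± 1.84 in san/san and 47.0 ± 12.9 in +/+ (SD, n = 2 each), a log2 difference of -0.94 with a standard error of 0.352. Of all tested probe sets 2.68% had a difference at least as far from 0, but this one did not pass (limma adjusted p = 0.38). Between the number 1 arrays the difference was -0.62 and between the number 2 arrays -1.26, and with the day as a block the adjusted p was 0.0534. Under the alternatives the difference stayed negative, from -1.19 to -0.641. At so low a signal its size depends on the added constant: it was -1.09 with 1 and -0.641 with 24 in place of 6.

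Markers of other cells that make Ifng were measured too. The 9 markers of CD8 T and NK cells on the array summed to 618.6 and 694.4 in san/san and 664.1 and 604.5 in +/+. These sums overlapped between the genotypes, and 0 of the 9 were called. With the day as a block Nkg7 was called higher in san/san (limma adjusted p = 0.00514). Cd8a and Cd8b1 were also higher on both san/san arrays, while Klrd1 and Prf1 were lower on both. Klrk1, Ncr1, Gzma and Gzmb overlapped, and the median log2 difference of the 9 was -0.084. The log2 ratio of Tnf to Ifng within an array was 1.88 and 1.73 in san/san, against 0.60 and -0.24 in +/+, a difference of 1.62. Here too the exact two-sided permutation p of 0.333 is the smallest the design allows. It was fixed once Tnf was higher and Ifng lower without overlap, and the pair was chosen after the values were seen.

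**Figure D2:**
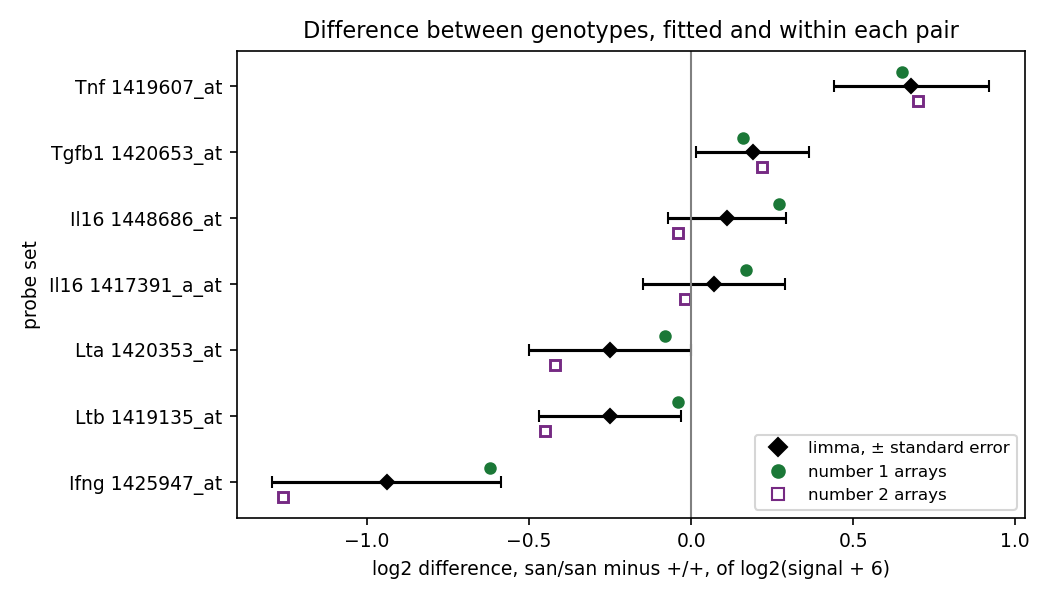
Log2 difference, san/san minus +/+, for the 7 tested cytokine probe sets, with limma's estimate and its standard error (diamonds), the number 1 arrays alone (filled circles) and the number 2 arrays alone (open squares). Tnf was positive on both days (0.65 and 0.70) and Ifng negative on both (-0.62 and -1.26), while both Il16 probe sets changed sign between the days.

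Tgfb1 encodes transforming growth factor beta 1, which is secreted in a latent form and is needed for peripheral regulatory T cells and, with other signals, for Th17 cells. It read 230.4 and 238.1 in san/san, against 205.4 and 203.0 in +/+. The arrays of each genotype lay close together and the genotypes did not overlap. The mean was 234.2 ± 5.44 in san/san and 204.2 ± 1.70 in +/+ (SD, n = 2 each), and the difference of 0.19 on the log2 scale, or 1.14-fold, did not pass (standard error 0.174, limma adjusted p = 0.822). Differences at least this far from 0 were found in 51.1% of all tested probe sets.

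Il16 encodes a precursor whose cleaved end is a chemoattractant for CD4-bearing cells, with CD4 as its receptor. Probe set 1417391_a_at read 669.3 and 863.8 in san/san, against 595.6 and 876.0 in +/+. Probe set 1448686_at read 233.7 and 220.7 in san/san, against 192.4 and 227.6 in +/+. In both the genotypes overlapped, and in the first the number 2 arrays were the higher ones in each genotype. The log2 differences were 0.07 and 0.11, with standard errors of 0.219 and 0.182 (limma adjusted p = 0.966 and 0.923).

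Il2 encodes the T cell growth factor interleukin 2, which activated CD4 cells release. Its probe set read 10.7 and 4.8 in san/san, against 2.4 and 1.6 in +/+. Both san/san arrays were higher, but all 4 values lay well under the minimum for testing, so no test is given. Il6, a cytokine known mostly from myeloid, stromal and B cells, read 8.7 and 11.0 in san/san and 8.0 and 7.2 in +/+. The genotypes did not overlap, yet array 1 of san/san lay just above the +/+ arrays. Among all 22626 probe sets apart from controls, with no minimum, the genotypes did not overlap in 35.5%.

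Il17a, the cytokine that defines Th17 cells, read 21.9 and 7.7 in san/san and 14.1 and 16.5 in +/+. Il10, which restrains antigen-presenting cells, read 16.7 and 10.2 in san/san and 21.9 and 9.8 in +/+. In both the genotypes overlapped, and the arrays of 1 genotype differed by more than the genotype means did. Whether any of these 4 transcripts was absent could not be judged, since detection calls were not used here.

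**Figure D3:**
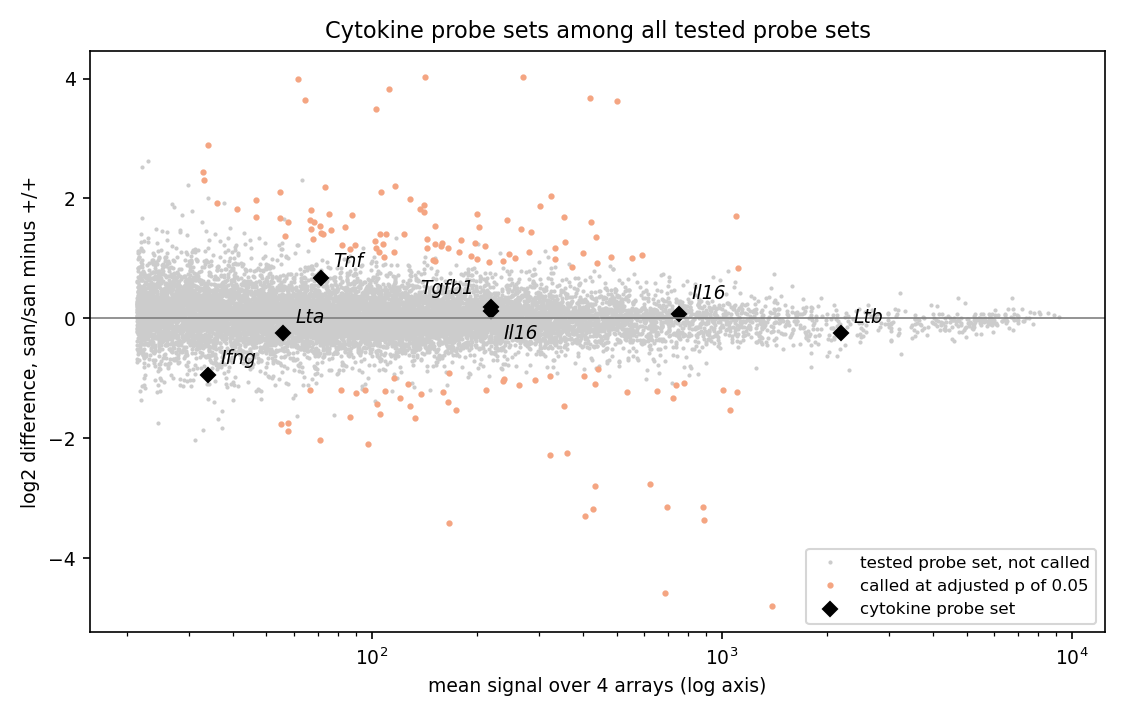
Log2 difference, san/san minus +/+, against mean signal over 4 arrays (log axis) for the 13585 tested probe sets, with the 144 called ones in orange and the 7 cytokine probe sets as black diamonds. The cytokine diamonds lie between -0.94 (Ifng) and 0.68 (Tnf), among uncalled probe sets.

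By a rule written with the list of members, when earlier results of these data were known, the genes closest in pattern to Tnf were named. Tnf was the member with the smallest p. Closeness was the root mean square distance between log2 values centred on their mean over the 4 arrays, among 12428 singly annotated tested probe sets. The closest were Cbx5 (0.0182), a heterochromatin protein gene, Itgb1 (0.0193), the integrin beta 1 gene, and Snorc (0.0233), where the median distance was 0.404. As the smallest of 12428 distances over 4 arrays, these show no link to Tnf. Itgb1, by its probe set 1427771_x_at, read 33.5 and 27.3 in san/san and 19.4 and 14.5 in +/+, and none of the 3 was called (limma adjusted p = 0.596 to 0.709).

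The receptors of these cytokines were followed as a list of 19 genes, each by its brightest probe set past the minimum. Of the 17 tested, 1 rose, 0 fell and 16 did not pass, where 0.67% of all tested probe sets were called higher and 0.39% lower. Blocking on the day gave 3 receptors that rose and 0 that fell, where 3.58% of all tested probe sets were called higher and 2.69% lower. Their median difference was 0.107 beside 0.0147 for all tested probe sets. Tnfrsf1b, the second receptor for tumour necrosis factor and common on activated and regulatory T cells, was the one that rose. It read 134.7 and 159.6 in san/san, against 70.4 and 68.3 in +/+, a log2 difference of 1.02 with a standard error of 0.203 (limma adjusted p = 0.0433). The difference was 0.88 between the number 1 arrays and 1.16 between the number 2 arrays. Its other tested probe set was at 0.28, which was not called (limma adjusted p = 0.858), and the call was lost without san/san array 1 (adjusted p = 0.0599), san/san array 2 (0.221) or +/+ array 2 (0.0712).

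Among the other receptors, the interleukin 2 receptor chains had the larger differences. Il2rb, the signalling beta chain, read 160.9 and 211.7 in san/san, against 113.7 and 76.4 in +/+, a log2 difference of 0.94 (limma adjusted p = 0.114, and 0.00134 with the day as a block). It passed without +/+ array 1 (limma adjusted p = 0.00271), and with pt or no. in the titles as a block (0.0415). Il2ra, the high-affinity alpha chain found on activated and regulatory T cells, read 66.8 and 71.3 in san/san, against 32.8 and 38.5 in +/+, a log2 difference of 0.85 (limma adjusted p = 0.227, and 0.02 with the block). The genotypes did not overlap for either chain, and the other tested probe set agreed for Il2rb at 0.90 but had 0.07 for Il2ra. Il10ra, the ligand-binding chain for interleukin 10, had 0.62 (limma adjusted p = 0.587). Cd4, which Il16 binds, read 585.9 and 570.2 in san/san and 533.3 and 613.5 in +/+, a log2 difference of 0.01, with -0.24 by its other tested probe set.

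Other cytokine genes of T cells formed a list of 23, of which 9 were bright enough to test. Of these 1 rose, 0 fell and 8 did not pass, where 0.67% of all tested probe sets were called higher and 0.39% lower. When the day was blocked 2 rose and 0 fell, where 3.58% of all were called higher and 2.69% lower. Il21, the cytokine of follicular helper T cells that drives germinal centre B cells, rose. It read 78.9 and 56.8 in san/san, against 16.1 and 13.4 in +/+, a log2 difference of 1.82 with a standard error of 0.342 (limma adjusted p = 0.0308). Without san/san array 1 (limma adjusted p = 0.259) or san/san array 2 (0.0653) it did not pass. Csf1, the macrophage growth factor, had 1.01 and passed with the block only (limma adjusted p = 0.166, and 0.00992 with the block), while its other probe sets had 0.37 and 0.15. Tnfsf11, which encodes RANK ligand, had 0.93, and Il24 had -0.59 (limma adjusted p = 0.506 and 0.763). The means of Il21 (14.8) and Tnfsf11 (16.0) in +/+ and that of Il24 in san/san (16.6) were under the minimum. Each of these genes, the called Il21 included, reached it only through the other genotype.

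A further 10 genes of that list lay below the minimum, with signals from 0.8 to 30.6, and 3 of them did not overlap, all higher in san/san, beside the 35.5% of all probe sets given above. Of these Il4, the cytokine of type 2 and follicular helper cells, was the brightest, at 30.6 and 25.9 in san/san and 8.2 and 18.4 in +/+; Tgfb2 and Tgfb3 were the other two, and these genes were named after their values were seen. Il5, Il13 and Csf2, further cytokines of activated helper T cells, did not exceed 6.0 on any array.

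Cytokines known mainly from other cells gave 4 tested genes of 18, of which 0 were called, also with the block. An unadjusted limma p under 0.05 was found for 1 of the 4, beside 9.89% of all tested probe sets. Il1b, the inflammasome-processed cytokine of myeloid cells, read 88.1 and 62.9 in san/san and 105.1 and 117.5 in +/+, a log2 difference of -0.54 (limma adjusted p = 0.459). Il18, a cytokine that promotes interferon gamma release, read 97.0 and 68.4 in san/san and 59.3 and 55.9 in +/+, a difference of 0.46 (limma adjusted p = 0.603). Their differences had opposite signs. The summed myeloid markers given above were higher in san/san, though not each marker was, and Cst3 was lower. In 7 of the 11 dim genes of this list the genotypes did not overlap, with 4 higher and 3 lower in san/san. The share over all 22626 probe sets apart from controls was 35.5%. Of the higher ones Il1rn, the antagonist of interleukin 1, read 40.7 and 23.8 in san/san and 6.2 and 4.7 in +/+. It was named after its values were seen.

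Genes for processing, shedding and latency of the cytokines gave 7 tested of 14, of which 1 rose and 0 fell, also with the block. Of all tested probe sets 0.67% were called higher and 0.39% lower, and with the block 3.58% and 2.69%. The one that rose was Casp1, which encodes the protease that cleaves interleukin 1 beta and interleukin 18 and not the 10 cytokines described here. It read 188.9 and 215.8 in san/san, against 102.2 and 99.5 in +/+, a log2 difference of 0.96 (limma adjusted p = 0.0393), and did not pass without san/san array 1 (0.0636), san/san array 2 (0.19) or +/+ array 2 (0.0694). Adam17, the sheddase that releases tumour necrosis factor from the cell surface, had 0.36, with 0.15 and -0.03 by its other probe sets. Furin, which cleaves the TGF-beta precursor, had 0.55, and Itgav, an integrin chain that activates latent TGF-beta, had 0.23 with -0.34 and 0.49 by its other probe sets. None of these 3 passed (limma adjusted p = 0.538 to 0.783 for the brightest probe sets).

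RNA-binding regulators of cytokine mRNA gave 12 tested genes of 14, each by its brightest probe set. Of these 0 rose, 1 fell and 11 did not pass, where 0.67% of all tested probe sets were called higher and 0.39% lower. When the day was blocked 0 rose and 2 fell, beside 3.58% of all called higher and 2.69% lower. Zfp36, which encodes tristetraprolin and promotes decay of Tnf and other cytokine mRNAs, fell. It read 323.8 and 309.2 in san/san, against 742.0 and 766.3 in +/+, a log2 difference of -1.24 with a standard error of 0.166 (limma adjusted p = 0.00477). Its difference was -1.18 between the number 1 arrays and -1.29 between the number 2 arrays, and each array left out in turn kept the call. Zfp36l2, a relative of tristetraprolin, read 1379.9 and 1504.1 in san/san and 2224.9 and 2094.3 in +/+, a log2 difference of -0.58 (limma adjusted p = 0.22, and 0.00721 with the block), and its other probe set had -0.86 (0.249, and 0.00589 with the block). The genotypes did not overlap for either gene. Dimmer probe sets of 2 further genes also passed with the block alone: that of Zfp36l1, another relative of tristetraprolin, had -0.83 (limma adjusted p = 0.0897, and 0.00114 with the block) where the brightest had -0.29. That of Pabpc1, a poly(A)-binding protein gene, had -1.14 (limma adjusted p = 0.403, and 0.00322 with the block), with the opposite sign to the 0.22 of the brightest. Celf1 and Tia1, regulators of mRNA stability and translation, had -0.34 and 0.35 (limma adjusted p = 0.606 and 0.617). The probe sets of Celf1 did not share a direction, the other 4 having -0.07, -0.06, -0.04 and 0.34, and those of Tia1 had 0.13 and 0.17 besides. Rc3h2, the paralog of the mutated gene, had 0.19 and was not called (limma adjusted p = 0.846), with -0.01 by its other probe set. Whether the lower Zfp36 signal and the Tnf values are related was not tested.

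Of the 4 list genes called, Tnfrsf1b, Il21, Casp1 and Zfp36, none passed when eBayes ran without its trend (limma adjusted p = 0.0511 to 0.21). With no filter Zfp36 still passed, and Tnfrsf1b (0.146), Il21 (0.168) and Casp1 (0.109) did not. Quantile normalization and median centring ended the calls of Tnfrsf1b (limma adjusted p = 0.0626 and 0.0946) and Casp1 (0.0604 and 0.168).

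**Figure D4:**
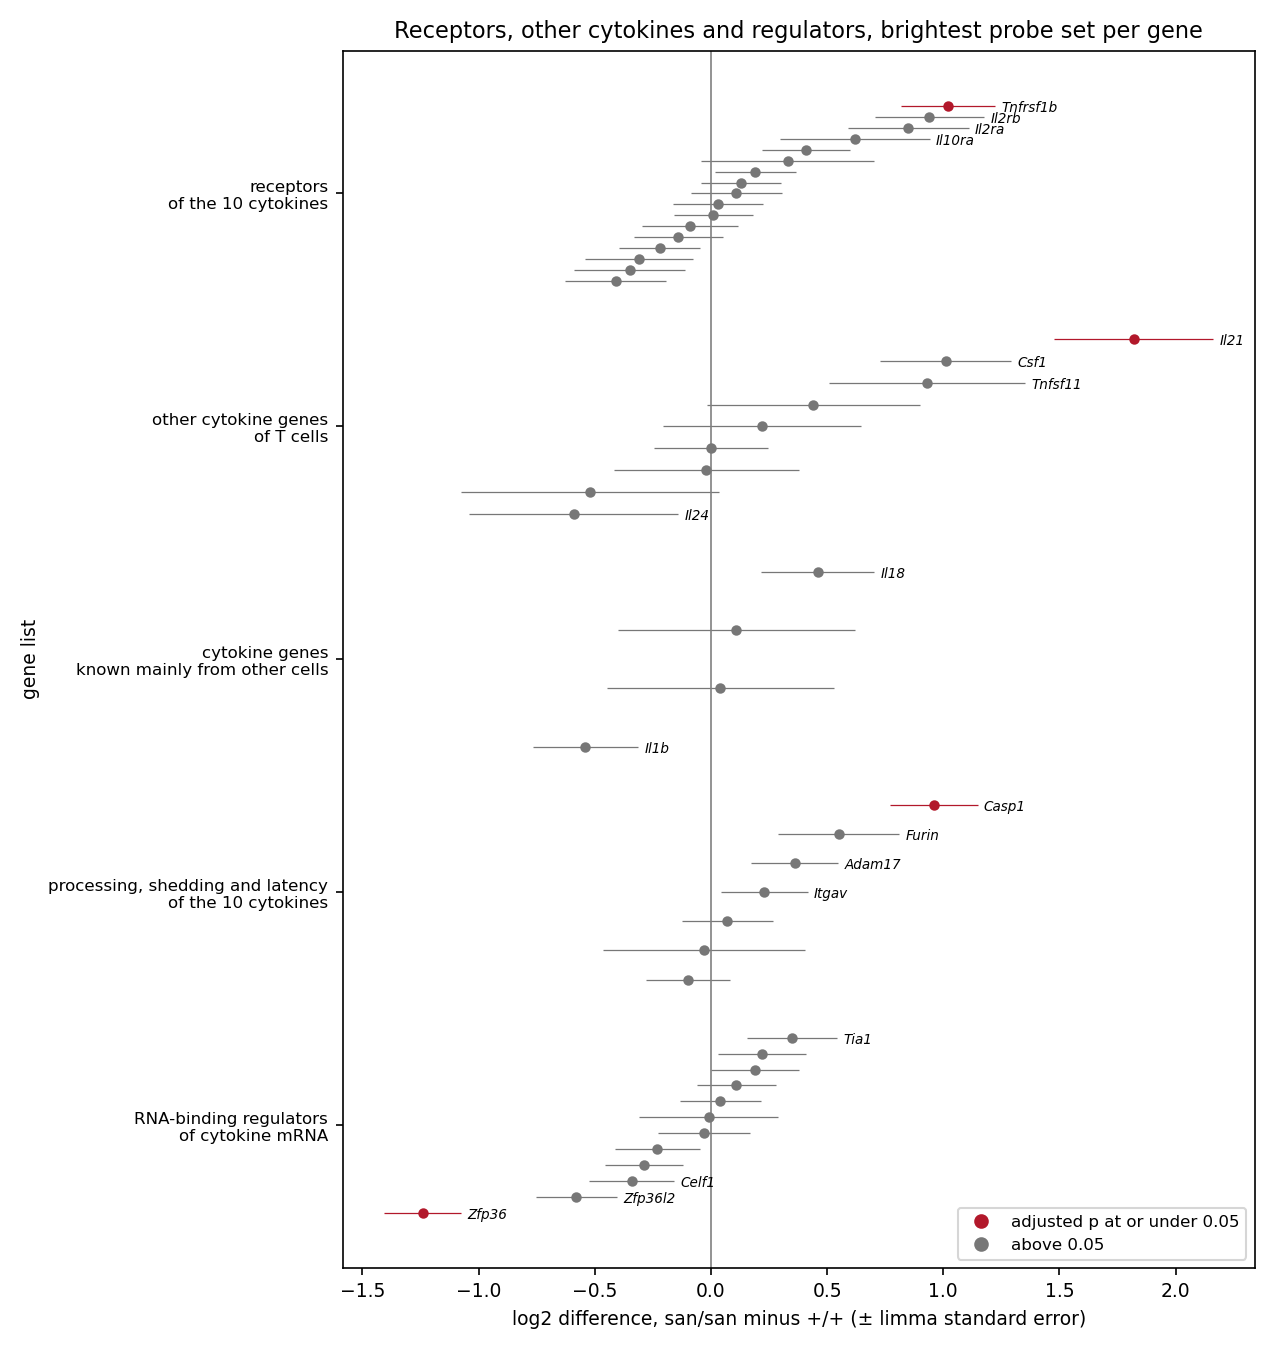
Log2 difference, san/san minus +/+, with limma's standard error for each tested gene of 5 lists, by its brightest probe set, with called genes in red. Tnfrsf1b, Il21 and Casp1 are the called genes to the right of 0 and Zfp36 (-1.24) is the one to the left.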

How the data were processed

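RNA of CD4 cells was measured on 4 MOE430A arrays, 2 of each genotype, with genotype and number taken from the titles. The deposited table gives linear signal intensity, 1 value for each probe set on each array. How the authors summarised probes and corrected background is not given in the sources used here. Trimmed means between the 2nd and 98th percentile lay between 99.59 and 99.97, so no further scaling was applied, and medians between 30.8 and 40.4. The number of arrays limits the precision.

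Signals were analysed as log2(signal + 6), 6 being the rounded 20th percentile of the table. Left out were 64 control probe sets and any with a mean under 21.3, the 40th percentile of the means. Limma 3.58.1 (lmFit, eBayes with trend, R 4.3.3) compared the genotypes without covariates, two-sided, with Benjamini-Hochberg adjustment over 13585 probe sets. Gene symbols came from GEO's platform annotation, updated by gene identifier through RefSeq's table (GRCm38.p6); 20393 probe sets had 1 symbol, 691 several, and 1555 besides controls are unnamed here. Promoter windows were present for 9 of the 10 genes.

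Same-numbered arrays shared a hybridisation and scan day, per the file headers, and a wash protocol was recorded for the number 1 arrays only. Their deviations from the genotype mean correlated with 0.391 over probe sets. The day as a block was an alternative, as were quantile normalization, median centring, pseudocounts of 1 and 24, a filter at the 60th percentile or none, eBayes without the trend, the titles' wording (pt or no.) as a block, and each array left out.

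The members and lists were chosen with earlier results of these data known. The text names all 10 member genes, from each list the genes that passed and up to 4 with the largest difference and no overlap, and the 3 probe sets most like Tnf; other genes are named outside that rule, after their values were seen: Cd4, Rc3h2, Zfp36l1, Pabpc1, Il4, Il5, Il13, Csf2, Tgfb2, Tgfb3, Il1rn and single markers of other cells. Markers of T, CD8 T and NK, B, plasma, macrophage and dendritic, neutrophil, and red cells and platelets were summed over each gene's brightest probe set. The 6 plasma cell markers summed to 1133.6 and 1024.1 in san/san and 1022.4 and 1115.6 in +/+. The 6 of red cells and platelets summed to 1285.2 and 1361.2 in san/san and 906.1 and 885.5 in +/+. In either set 0 were called. With the day as a block the red cell genes Alas2 and Slc4a1 were called higher in san/san (limma adjusted p = 0.00381 and 0.00478). Figures were drawn with matplotlib 3.10.9.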

Additional observations from a re-analysis of the deposited data

How the results depend on the processing

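The count of called cytokine probe sets was 0 under 12 alternatives, and 1 (Tnf) with the replicate block, the pairing of arrays by day. Over all probe sets the count of 144 became 56 with no filter, 45 with eBayes run without its trend, and 852 with the replicate block, 487 higher and 365 lower, all 144 among them. With 1 array left out it ran from 109 to 360, and a lone array was then assumed to vary like the other genotype. Median centring moved the median of all tested probe sets from 0.0147 to -0.074 and their share above 0 from 52.1% to 39.6%. Of 89 values of the 7 tested cytokine probe sets under alternatives, 5 changed sign, none of them called. For Ltb the difference of -0.248 ran from -0.544 to 0.0482 with 1 array left out. For Il16 1417391_a_at it was -0.0154 with median centring and ran from -0.203 to 0.349 with 1 array left out, and for Il16 1448686_at from -0.00303 to 0.233. The cause was not tested. Tnf, Ifng, Lta and Tgfb1 kept their sign under every alternative that tested them; the filter at the 60th percentile left out Ifng and Lta. For Il2, below the filter, the untested difference was 0.749, and 1.47 or 0.282 with a pseudocount of 1 or 24. Signals near the low end of the table limit what can be said of the dim cytokines.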
